A study of Mus musculus with 13 samples.

Results

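The cytosolic ribosomal protein genes of mouse neuroblastomas were compared among tumours of 3 driver genotypes and with normal adrenal gland. Members were taken by gene symbol alone: symbols of the form Rpl or Rps followed by a number, with Rplp0, Rplp1, Rplp2 and Rpsa, on probe sets annotated to exactly 1 symbol. This gave 49 genes of the 18193 genes measured, 26 of the large and 23 of the small ribosomal subunit, and each gene was read from its brightest probe set. A further 28 ribosomal protein symbols lie only on probe sets that the platform annotation gives to several symbols, and these were not analysed gene by gene here. Among the members is Rps4l, which RefSeq lists as a transcribed pseudogene at chr6:148354656-148355596 (GRCm38.p6).

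RNA was measured on 13 Affymetrix mouse arrays, all from C57BL/6 mice. The groups are tumours carrying both a MYCN and a mutated ALK transgene (double transgenic, n = 3), tumours carrying the MYCN transgene (n = 4), tumours carrying the mutated ALK transgene (mutALK, n = 3), and adrenal glands of the genotype labelled normal (n = 3). MYCN is a transcription factor of the MYC family and ALK a receptor tyrosine kinase. Both transgenes are expressed specifically in the neural crest, animals were killed once a tumour could be felt, and no further treatment was given. The labels state neither ages nor whether each array comes from another animal. Arrays mutALK 2 and 3 share a title number, as do MYCN 2 and 3. The p-values thus rest on a spread among arrays that may be partly technical. The double transgenic samples are numbered apart from all others, whose sample numbers are consecutive. Whether they were processed separately was not tested, and this could not be told apart from genotype in their comparisons.

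Each cytosolic ribosome carries a single copy of nearly every ribosomal protein beside the ribosomal RNAs, so cells make these proteins in closely matched amounts and their mRNAs are among the most abundant of any cell. The small subunit decodes the mRNA, the large subunit joins the amino acids, and the P stalk of the large subunit recruits the translation factors. Transcription factors of the MYC family are known to act on ribosomal protein genes, and the mRNAs of these genes start with a run of C and T (the 5' terminal oligopyrimidine, or TOP, motif) through which growth signals control their translation. Nascent proteins join the pre-ribosome in the nucleolus with the help of assembly factors, and several ribosomal proteins have a paralog of similar sequence.

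The windows around annotated starts below show examples with and without a run of at least 7 C or T. RefSeq promoter sequences of GRCm38.p6 were at hand for 43 of the 49 members. Each line gives 20 bases before the annotated start and 20 from it onward on the gene's strand, 5' to 3', and capitals mark a run of at least 7 C or T. Rpl14, Rpl35, Rps18 and Rpl7a were chosen for a long run, and Rpl22l1, Rps27l, Rpsa and Rpl7l1 because their values are described below. The longest run of Rpl22l1 is 10 bases, as in Rplp2, while its partner Rpl22 has no run of 7 at its annotated starts. That of Rps27l is 9, as in its partner Rps27, and only 4 at another annotated start of Rps27l. In Rps27l, shown at 1 of its annotated starts, the capitals all lie before that start. Rpsa and Rpl7l1 have no run of 7 in this window, nor have Rps2, Rps4x and Rpl41 (longest 6, 4 and 3).
Rpl14, chr9:120571497-120571536, plus strand: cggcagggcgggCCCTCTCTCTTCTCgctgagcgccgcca
Rpl35, chr2:39005112-39005151, minus strand: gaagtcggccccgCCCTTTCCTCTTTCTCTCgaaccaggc
Rps18, chr17:33955646-33955685, minus strand: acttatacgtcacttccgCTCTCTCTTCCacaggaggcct
Rpl7a, chr2:26910787-26910826, plus strand: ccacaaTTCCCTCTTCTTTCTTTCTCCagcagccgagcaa
Rpl22l1, chr3:28805488-28805527, plus strand: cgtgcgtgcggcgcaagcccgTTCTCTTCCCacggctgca
Rps27l, chr9:66946066-66946105, plus strand: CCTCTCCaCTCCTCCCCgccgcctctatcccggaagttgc
Rpsa, chr9:120127746-120127785, plus strand: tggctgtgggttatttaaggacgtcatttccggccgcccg
Rpl7l1, chr17:46782637-46782676, minus strand: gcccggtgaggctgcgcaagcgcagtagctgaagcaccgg

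A run of at least 7 C or T anywhere on the sense strand of this window was found in 27 of 43 members (62.8%) and in 27.5% of 27025 genes in the table. The count takes runs before the start, as in Rps27l, and leaves out shorter ones, so it is not a count of TOP motifs. In the longer promoter from 250 bases before to 50 after the start, read on both strands, CCGGAA was found in 28 members (65.1%, against 16.7% of genes), GGGCGG in 25 (58.1%, against 38.2%), TATAAA in 6 (14%, against 15.7%) and the E-box CACGTG in 4 (9.3%, against 8.09%). None of these words contains another, while a C and T run can overlap the reverse strand of CCGGAA or GGGCGG. A match describes the letters and is not evidence of a bound factor. The members with the run had a median difference in MYCN tumours minus adrenal gland of 0.47, and the 16 without it 0.53. In the other tumours the order was the reverse, at 0.414 and 0.383 in double transgenic and 0.311 and 0.309 in mutALK tumours. These gaps were not tested.

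The median signal of the arrays lay between 5.80 and 5.90 on the log2 scale and the brightest value on any array was 14.46, so array signal, rather than a read depth, limits precision. Adrenal cortex markers averaged 4.64 to 6.54 in the tumours and 11.34 to 12.68 in the adrenal arrays, and all 8 listed were measured. Young neuron markers (6 of 6) averaged 10.94 to 12.19 in the tumours and 4.52 to 8.81 in the adrenal arrays. Adipocyte markers (5 of 7) averaged 4.35 to 8.51 in the tumours and 9.92 to 11.89 in the adrenal arrays, and endothelial markers (6 of 6) 5.18 to 7.68 and 9.17 to 9.34. Double transgenic tumours lay below MYCN tumours for endothelial (5.18 to 5.87, against 6.24 to 7.68) and fibroblast markers (6.83 to 8.69, against 8.75 to 9.52). Single arrays stood apart for skeletal muscle markers (7.32 on double transgenic 1 and 8.76 on MYCN 3). B cell markers (4 of 5) were highest on mutALK 1 (8.02) and MYCN 1 (8.13). Erythroid markers (3 of 7) averaged 9.18 on mutALK 2, where Alas2 and Slc4a1 read 11.79 and 11.07 but Hba-a1 only 4.67. The 12 hepatocyte markers averaged above 8 on 5 arrays: double transgenic 1 (12.33), MYCN 2 (8.99), mutALK 1 (11.003), mutALK 3 (9.82) and adrenal 2 (11.13), where those tissues should lack them. Counts of members are given below with and without these 5 arrays, and a named call that ends without them is marked. In bulk tissue, fewer cells of a type and less RNA per cell cannot be told apart, and quantile-normalized values show a gene's level relative to the rest of its array, not per cell. The part of these marker differences in the results was not tested.

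Of the 49 members, 36 had a mean of 12 or more over the 13 arrays and 32 of 13 or more, near the top of the range, while 3 were below 5. The median deviation of the 49 members from their own means was 0.12, 0.08 and 0.06 on the double transgenic arrays, 0.19, 0.16, 0.19 and 0.16 on the MYCN arrays and -0.03, -0.04 and 0.03 on the mutALK arrays, against -0.19, -0.39 and -0.20 on the adrenal arrays. All MYCN arrays lay above all double transgenic arrays, which lay above all mutALK arrays, and the adrenal arrays were lowest. Adrenal 2 lay apart from the other 2 adrenal arrays. It had hepatocyte transcripts and was also higher than those 2 for young neuron (8.81, against 5.35 and 4.52) and Schwann cell markers (9.42, against 7.86 and 7.87). Without it the median difference from adrenal gland was 0.28 in double transgenic, 0.39 in MYCN and 0.21 in mutALK tumours, with 31, 35 and 17 members higher.

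**Figure D1:**
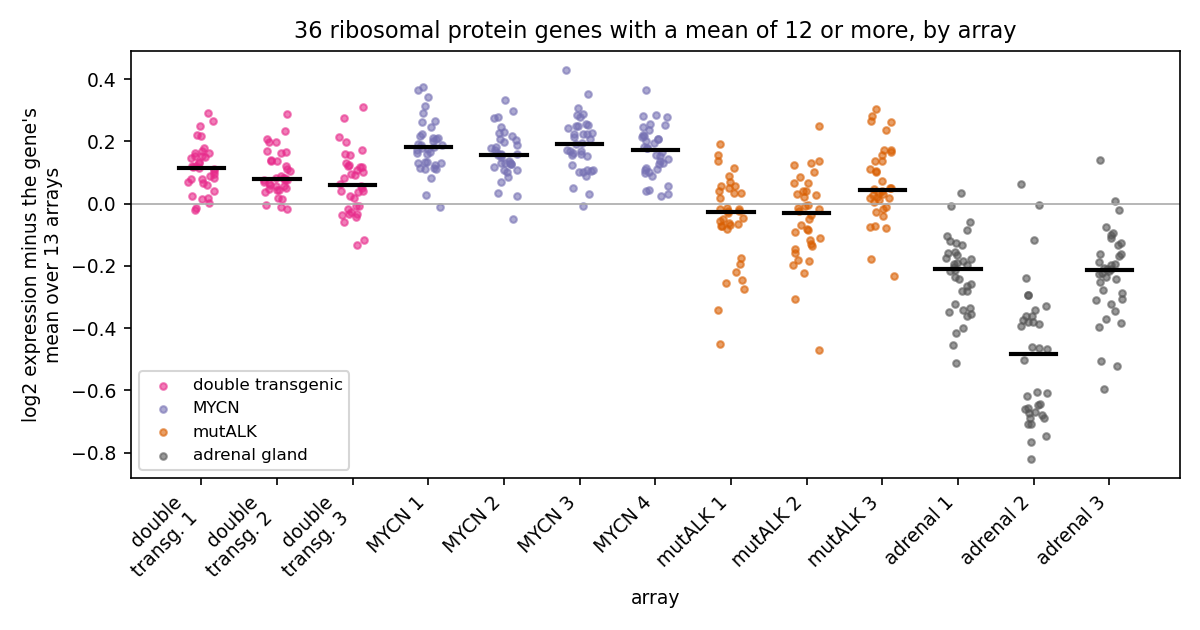
Log2 expression of the 36 ribosomal protein genes with a mean of 12 or more, each minus its own mean over 13 arrays, by array. Points are genes and bars are array medians, which run from 0.16 to 0.19 in the 4 MYCN arrays and from -0.48 to -0.21 in the 3 adrenal arrays.

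In MYCN tumours most ribosomal protein transcripts were higher than in adrenal gland, usually by less than 1 log2 unit. Of 49 members, 35 rose, 1 fell and 13 were not called (limma over all genes, Benjamini-Hochberg adjusted p under 0.05), where 25.4% of all genes rose and 24.8% fell. The median difference of the members was 0.48, against -0.02 over all genes. All 4 MYCN arrays lay above all adrenal arrays for 42 members, and below for 1, where 26.8% and 26.7% of all genes did so. The large subunit had 19 of 26 members higher and the small subunit 16 of 23. Bright genes in general leaned the same way: of all 284 genes with a mean of 12 or more, members included, 50% rose and 19.7% fell, with a median of 0.31, against 31 of 36 (86.1%) and 0 among the members at that brightness, with a median of 0.51. Without the 5 arrays with hepatocyte transcripts, 33 members rose and 0 fell, with a median difference of 0.39.

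The largest rise was that of Rpl14, a large-subunit protein, at chr9:120571517-120574653. It read 8.91, 9.15, 9.23 and 9.22 in MYCN tumours, against 6.98, 7.0001 and 7.32 in adrenal glands, a rise of 2.03 ± 0.16 (log2 difference ± SE, 4.07-fold, adjusted p = 1.14e-06). The probe sets of Rpl14, Rpl12 and Rps25 (means 8.19, 8.26 and 8.64) were much dimmer than those of most members. Rpl12, which lies at the base of the stalk at chr2:32961712-32964045, read 9.19, 8.78, 8.78 and 8.88 in MYCN tumours, against 7.49, 6.41 and 7.35 in adrenal glands and rose by 1.83 ± 0.29 (adjusted p = 0.000266). The groups did not overlap in either gene. Rps25, a small-subunit protein, rose by 0.88 ± 0.34 (adjusted p = 0.0479), and that call was lost on leaving out each MYCN or adrenal array in turn (adjusted p = 0.0601 to 0.135) and with the arrays that share a title number as a block (0.107).

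Among bright members, Rps19, whose mutation causes Diamond-Blackfan anaemia in people, rose by 0.86 ± 0.10 (adjusted p = 3.12e-05). Rpl8, of the peptidyl transferase region, rose by 0.79 ± 0.10, Rpsa, also known as the laminin receptor, by 0.78 ± 0.08, and Rps3a1 by 0.72 ± 0.13 (adjusted p = 5.61e-05, 6.25e-06 and 0.000494). Rpsa read 13.81, 13.72, 13.73 and 13.73 in MYCN tumours, against 12.99, 12.98 and 12.92 in adrenal glands, and its 4 MYCN values all lay above every adrenal value. The paralog Rpl7l1 rose by 0.82 ± 0.13 (adjusted p = 0.000179).

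Double transgenic tumours were also higher than adrenal gland for most members. Of 49, 34 rose, 1 fell and 14 were not called, where 24.3% of all genes rose and 24.2% fell, and the median difference was 0.37, against -0.03 over all genes. The double transgenic arrays lay above all adrenal arrays for 37 members and below for 2, where 26.5% and 26.7% of all genes did so. Among genes with a mean of 12 or more, 30 of 36 members (83.3%) rose and 0 fell, against 48.6% and 18.3% of all 284 such genes. Without the 5 arrays with hepatocyte transcripts, 18 members rose and 1 fell, on 2 double transgenic and 2 adrenal arrays, with a median difference of 0.29.

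Rpl12, read from a dim probe set with a mean of 8.26, had the largest rise here. It read 8.64, 9.68 and 9.26 in double transgenic tumours, against 7.49, 6.41 and 7.35 in adrenal glands, a difference of 2.11 ± 0.32 (4.32-fold, adjusted p = 0.000168). Rpl14 followed at 1.54 ± 0.17 (adjusted p = 1.75e-05) and Rps25 at 1.23 ± 0.36 (adjusted p = 0.0137, and 0.0548 and 0.0544 without double transgenic 2 or 3). The bright genes Rpsa, Rps19, Rpl35, whose protein lies at the exit tunnel, Rpl8 and Rpl22l1 rose by 0.73 ± 0.08, 0.72 ± 0.11, 0.68 ± 0.10, 0.67 ± 0.11 and 0.65 ± 0.13 (adjusted p from 2.3e-05 to 0.00114). Rpl27a, a large-subunit gene at chr7:109519195-109522369 read from a probe set with a mean of 8.90, was the only member called lower. It read 7.57, 8.43 and 8.42 in double transgenic tumours, against 8.81, 9.08 and 8.94 in adrenal glands, a difference of -0.80 ± 0.26 (adjusted p = 0.0226), and the lowest value was on double transgenic 1, an array with hepatocyte transcripts. Without that array the difference was -0.52 and the call was lost (adjusted p = 0.0900), as it was without adrenal 2 (0.0630) or adrenal 3 (0.0509).

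In mutALK tumours a little over 50% of the members rose against adrenal gland, and the falls were in paralogs. Of 49, 25 (51%) rose, 2 fell and 22 were not called, where 21.3% of all genes rose and 21% fell, with a median difference of 0.31 against 0.002 over all genes. The mutALK arrays lay above all adrenal arrays for 32 members and below for 2, where 24% and 24.1% of all genes did so. Among genes with a mean of 12 or more, 23 of 36 members (63.9%) rose and 1 fell, against 39.4% and 17.6% of all 284. The count of 25 became 16 without mutALK 3 and 6 when only the mutALK and adrenal arrays were fitted. Without the 5 arrays with hepatocyte transcripts, 2 of the 3 mutALK among them, 2 members rose, 3 fell and the median was 0.16. The remaining mutALK array is then assumed to vary like the other groups.

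**Figure D2:**
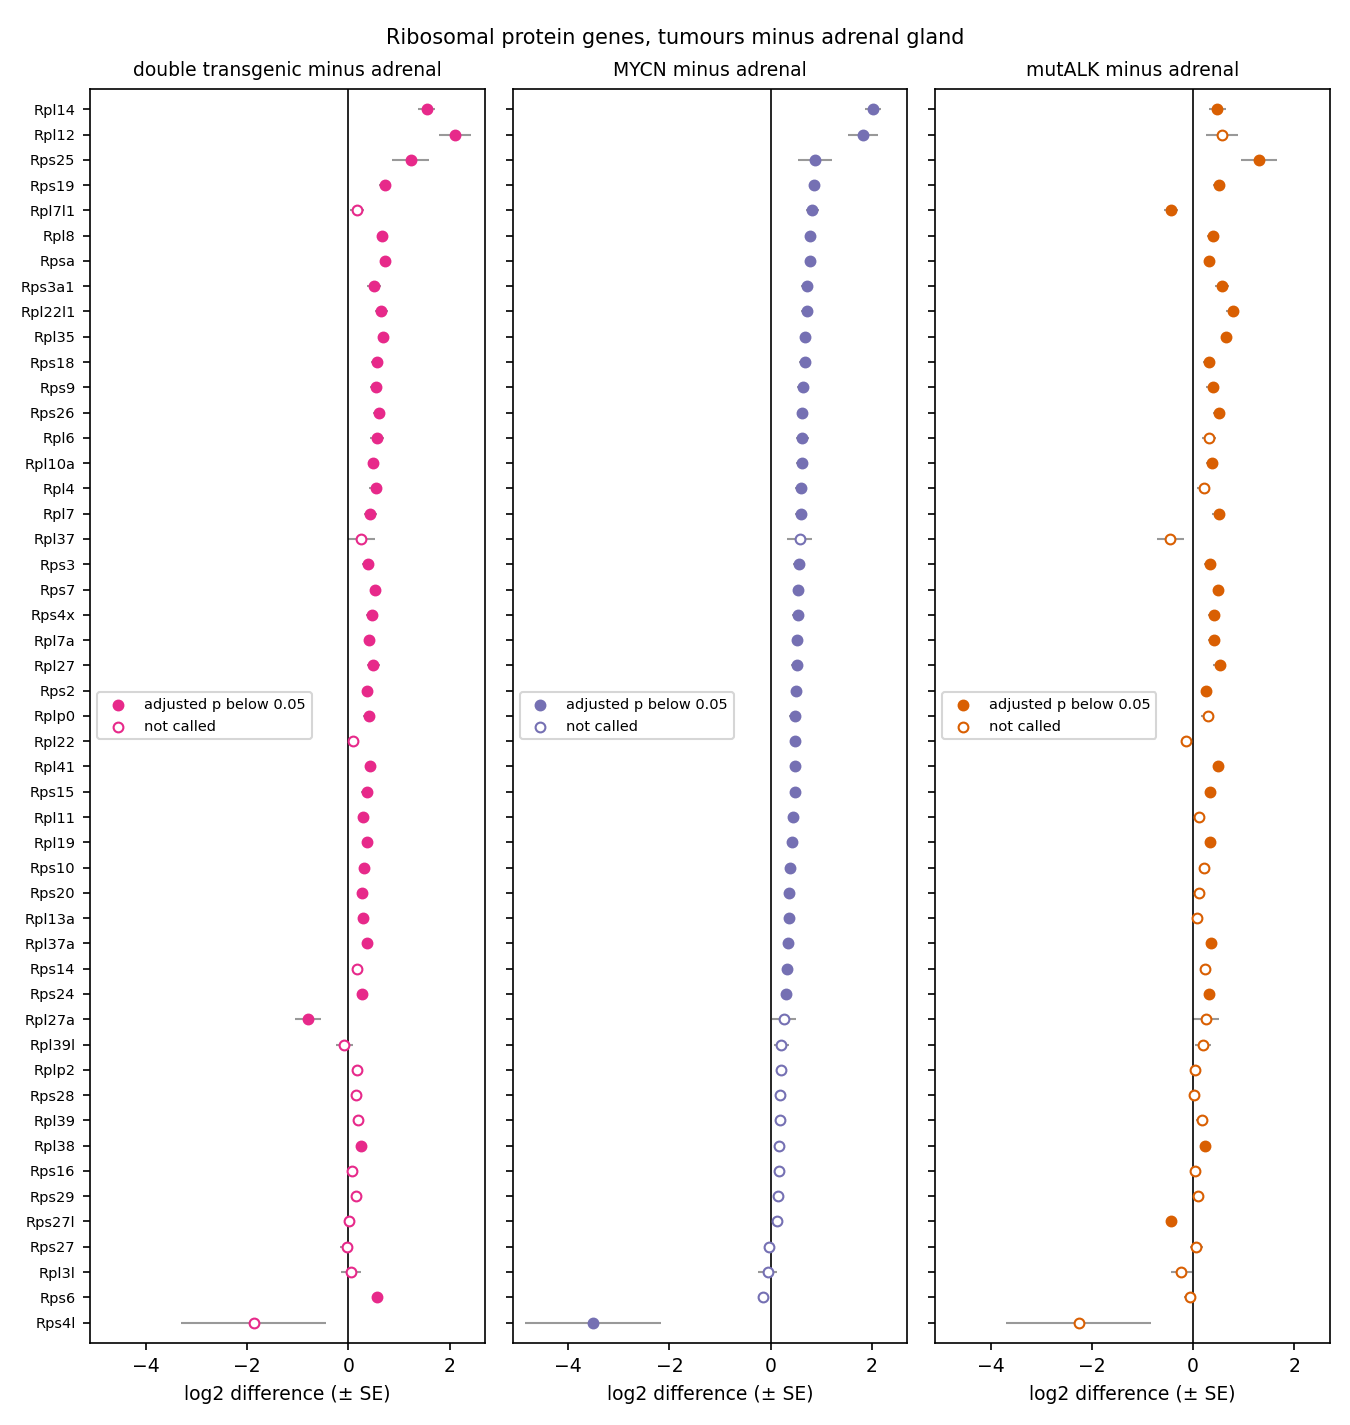
Log2 difference ± SE of each of the 49 ribosomal protein genes in double transgenic, MYCN and mutALK tumours minus adrenal gland, in the order of the MYCN difference. Filled points have an adjusted p under 0.05, and most members lie between 0 and 1 in all 3 panels. Above 1 lie Rpl12, Rpl14 and Rps25 in double transgenic, Rpl12 and Rpl14 in MYCN and Rps25 in mutALK tumours, and Rps4l is far to the left in each.

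Rps25 had the largest rise in mutALK tumours, with 8.84, 8.45 and 9.98 in mutALK tumours, against 8.03, 7.56 and 7.77 in adrenal glands, a difference of 1.30 ± 0.36 (adjusted p = 0.0117) that was 0.86 without mutALK 3 and 0.55 without the hepatocyte arrays, where it lost its call (adjusted p = 0.0896). The mutALK arrays all lay above the adrenal arrays but spread widely, with mutALK 3 highest. The Rps25 probe set had a mean of 8.64, below those of most members. Rpl22l1, the paralog of Rpl22, rose by 0.79 ± 0.13 and Rpl35 by 0.65 ± 0.10 (adjusted p = 0.000426 and 0.000316), and both calls held under every alternative tried. Rps3a1, Rpl27, Rpl7, Rps26 and Rps19 rose by 0.50 to 0.57 (adjusted p = 0.00272 to 0.00683), and each lost its call without the hepatocyte arrays.

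The members that fell in mutALK tumours were both paralogs. Rps27l, a p53-inducible paralog of Rps27 in human cells, read 11.59, 11.57 and 11.81 in mutALK tumours, against 12.07, 12.04 and 12.18 in adrenal glands, a difference of -0.44 ± 0.10 (adjusted p = 0.00284). The mutALK arrays all lay below the adrenal arrays. Rpl7l1 differed by -0.44 ± 0.13 (adjusted p = 0.02), and that call was lost without mutALK 2, mutALK 3 or adrenal 3 (adjusted p = 0.0757, 0.0546 and 0.0656).

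MYCN tumours had higher levels than mutALK tumours for a minority of members, and for none was a lower level called. Of 49, 14 rose, 0 fell (limma, and 0 had an unadjusted p under 0.05 in that direction) and 35 were not called, where 17.2% of all genes rose and 13.6% fell. The median difference was 0.15, against -0.003 over all genes. The MYCN arrays lay above all mutALK arrays for 27 members and below for 1, where 21.6% and 19% of all genes did so. Among genes with a mean of 12 or more, 10 of 36 members (27.8%) rose, near the 25.4% of all 284. The 14 calls became 9 without mutALK 1, 8 without mutALK 2, 9 without MYCN 3, 8 without the hepatocyte arrays, and 9 with either the title-number block or a second quantile normalization.

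Rpl14 differed most between these tumours, at 8.91, 9.15, 9.23 and 9.22 in MYCN tumours, against 7.52, 7.33 and 7.89 in mutALK tumours, a rise of 1.55 ± 0.16 (adjusted p = 5.88e-05). Rpl7l1 read 10.19, 10.27, 10.36 and 10.40 in MYCN tumours, against 9.21, 8.90 and 9.01 in mutALK tumours and rose by 1.26 ± 0.13 (adjusted p = 5.17e-05). Rpl12 rose by 1.26 ± 0.29 (adjusted p = 0.00706). In all 3 genes every MYCN array lay above every mutALK array. Their probe sets had means of 8.19, 9.67 and 8.26, below those of most members. Rpl37, a large-subunit protein, rose by 1.03 ± 0.25 (adjusted p = 0.00797), by 0.64 without mutALK 2, whose 8.68 was the lowest of its values, and by 1.82 without the hepatocyte arrays, which leave mutALK 2 alone in its group. With the title-number block the Rpl37 call was lost (adjusted p = 0.0609). Among bright members, Rpl22 rose by 0.62 ± 0.10, Rps27l by 0.57 ± 0.09, Rpsa by 0.48 ± 0.08 and Rpl8 by 0.40 ± 0.10 (adjusted p = 0.000711, 0.000666, 0.000857 and 0.0114), and the Rpl8 call was lost without mutALK 1 (0.0564) and without the hepatocyte arrays (0.0877).

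Adding the mutated ALK transgene to MYCN went with few called changes. In double transgenic minus MYCN tumours 1 member rose, 3 fell and 45 were not called, where 6.16% of all genes rose and 6.66% fell. The median difference was -0.07, against -0.03 over all genes. Of the 49 differences 39 were below 0 and 10 above, where 8273 of all 18193 genes were above 0. Without the hepatocyte arrays 2 rose and 2 fell. The double transgenic arrays lay above all MYCN arrays for 2 members and below for 19, where 14.3% and 16.2% of all genes did so.

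Rps6, the small-subunit protein phosphorylated by S6 kinase, at chr4:86854099-86857367, was the member that rose. It read 9.86, 9.52 and 9.72 in double transgenic tumours, against 9.05, 8.86, 9.06 and 8.94 in MYCN tumours, a rise of 0.73 ± 0.10 (adjusted p = 0.00176), with every double transgenic array above every other array. The other arrays read 9.04, 9.12 and 9.02 in mutALK tumours, against 9.20, 9.03 and 9.15 in adrenal glands. Against mutALK tumours it rose by 0.64 ± 0.11 (adjusted p = 0.00463), and against adrenal gland by 0.57 ± 0.11 (adjusted p = 0.000913). In MYCN and mutALK tumours its differences from adrenal gland were -0.15 ± 0.10 and -0.07 ± 0.11 and were not called. The Rps6 signal near 9 was below that of most members, and a second, dimmer Rps6 probe set (mean 4.39) differed by 0.71 ± 0.19 between double transgenic and MYCN tumours (adjusted p = 0.0377 with each probe set tested on its own) but was not called against mutALK tumours or adrenal gland. Without the hepatocyte arrays the Rps6 call against mutALK tumours was lost (adjusted p = 0.0950).

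Rpl27a read 7.57, 8.43 and 8.42 in double transgenic tumours, against 9.24, 9.15, 9.32 and 9.13 in MYCN tumours, a difference of -1.07 ± 0.24 (adjusted p = 0.0155) that was -0.57 with the mean of its 2 probe sets. The brighter Rpl27a probe set had a mean of 8.90, and the other, with a mean of 3.22, was not called. Rpl7l1 differed by -0.65 ± 0.13 (adjusted p = 0.00776), with 9.90, 9.66 and 9.39 in double transgenic tumours, against 10.19, 10.27, 10.36 and 10.40 in MYCN tumours, and the groups did not overlap. Rpl22 differed by -0.40 ± 0.10 (adjusted p = 0.0222), a call lost in 5 of the single-array omissions and without the hepatocyte arrays (adjusted p = 0.0528 to 0.0828), and the difference was -0.04 with the mean of its 3 probe sets (0.862).

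Against mutALK tumours, double transgenic tumours had 6 members higher, 1 lower and 42 not called, where 8.39% of all genes rose and 6.04% fell. The median was 0.09, against -0.02 over all genes, and the double transgenic arrays lay above all mutALK arrays for 19 members and below for 2, where 16.9% and 16% of all genes did so. Without the hepatocyte arrays 4 rose and 0 fell. Rpl12 rose by 1.54 ± 0.32 and Rpl14 by 1.06 ± 0.17 (adjusted p = 0.0102 and 0.00382), both on dim probe sets, and both calls held under every alternative tried. Rpl7l1, Rps27l and Rpsa rose by 0.61 ± 0.13, 0.46 ± 0.10 and 0.42 ± 0.08 (adjusted p = 0.0147, 0.0108 and 0.00895), and all 3 calls were lost without the hepatocyte arrays (0.0776, 0.0751 and 0.102). Rpl27a fell, at -1.07 ± 0.26 (adjusted p = 0.0212), and without double transgenic 1 the difference was -0.78 (adjusted p = 0.0569), and without the hepatocyte arrays -0.52 (0.0814). The 3 comparisons with adrenal gland share their adrenal arrays, and the 3 among tumours share tumour arrays, so their values stand side by side and are not independent.

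By role, the stalk protein Rplp0 rose in MYCN tumours by 0.48 ± 0.11 and in double transgenic tumours by 0.41 ± 0.12 (adjusted p = 0.00383 and 0.0149), and differed in mutALK tumours by 0.29 ± 0.12 (adjusted p = 0.0828). The double transgenic call was lost without double transgenic 2 (0.0557) and without the hepatocyte arrays (0.169). Rplp2, which sits at the tip of the stalk, passed no test against adrenal gland, at 0.17 ± 0.10, 0.21 ± 0.09 and 0.04 ± 0.10 in double transgenic, MYCN and mutALK tumours. Rplp1 has no probe set of its own. Rpl11, which with Rpl5 and 5S ribosomal RNA can bind the p53 regulator Mdm2, read 13.22, 13.15 and 13.23 in double transgenic tumours, 13.32, 13.35, 13.38 and 13.31 in MYCN tumours, 12.92, 12.998 and 13.15 in mutALK tumours, against 12.96, 12.76 and 13.003 in adrenal glands. It rose in double transgenic and MYCN tumours by 0.29 ± 0.10 and 0.44 ± 0.09 (adjusted p = 0.0258 and 0.00164), and the double transgenic call was lost in 7 of the alternatives (0.0527 to 0.187). Its mutALK difference of 0.12 ± 0.10 passed no test, and mutALK and adrenal arrays overlapped. Between MYCN and mutALK tumours Rpl11 rose by 0.32 ± 0.09 (adjusted p = 0.0188), a call lost without mutALK 1, mutALK 2, MYCN 3 or the hepatocyte arrays (0.0516 to 0.110).

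Of the 7 listed genes mutated in Diamond-Blackfan anaemia, a failure of red cell production, 5 were measured: Rps7, Rps10, Rps19, Rps24 and Rps26. The list does not hold every gene linked to this disease, so its counts do not stand for all of them. All 5 rose in double transgenic tumours (by 0.27 ± 0.09 for Rps24 up to 0.72 ± 0.11 for Rps19) and in MYCN tumours (by 0.31 ± 0.08 for Rps24 up to 0.86 ± 0.10 for Rps19). Of all 49 members 69.4%, 71.4% and 51% rose in double transgenic, MYCN and mutALK tumours, and of all genes 24.3%, 25.4% and 21.3%. In mutALK tumours Rps7, Rps19, Rps24 and Rps26 rose by 0.49 ± 0.09, 0.50 ± 0.11, 0.31 ± 0.09 and 0.51 ± 0.11, and Rps10 differed by 0.23 ± 0.09 (adjusted p = 0.0573). Without the hepatocyte arrays all 4 mutALK calls were lost, as were Rps10 in double transgenic tumours (0.145) and Rps24 in double transgenic and MYCN tumours (0.212 and 0.0775). Rps24 in double transgenic tumours also lost its call without adrenal 2, double transgenic 1 or double transgenic 2 (0.0654, 0.0595 and 0.0601), and Rps10 there with a second quantile normalization (0.0618) or only the compared groups (0.0839). Rps24 lost its call in all 3 tumour groups with a second quantile normalization (0.0531 to 0.110), and its mutALK difference was 0.02 with the mean of its 6 probe sets, of which a dim one (mean 7.13) differed by -1.39 ± 0.31. Rps26 read 13.47, 13.46 and 13.42 in double transgenic tumours, 13.51, 13.43, 13.49 and 13.48 in MYCN tumours, 13.36, 13.32 and 13.40 in mutALK tumours, against 12.98, 12.59 and 12.99 in adrenal glands. Every tumour array lay above every adrenal array, and adrenal 2 was the lowest. Between MYCN and mutALK tumours Rps19 was the only gene of the 5 called, at 0.36 ± 0.10 (adjusted p = 0.0225), and that call was lost without mutALK 2, MYCN 1 or MYCN 3 (adjusted p = 0.108, 0.0526 and 0.0570), with the title-number block (0.0699) and with a second quantile normalization (0.0793).

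The paralogs are given beside their partners, and the difference between partners was not tested. Rpl22 read 13.16, 13.16 and 13.04 in double transgenic tumours, 13.44, 13.51, 13.60 and 13.54 in MYCN tumours, 12.83, 12.87 and 12.997 in mutALK tumours, against 13.12, 12.85 and 13.15 in adrenal glands. Every MYCN array lay above every other array, with adjusted p = 0.00139 against adrenal gland. Rpl22l1 read 12.56, 12.72 and 12.31 in double transgenic tumours, 12.69, 12.55, 12.65 and 12.46 in MYCN tumours, 12.62, 12.68 and 12.69 in mutALK tumours, against 12.03, 11.68 and 11.92 in adrenal glands, with every tumour array above every adrenal array and the 3 tumour groups overlapping. Rpl22l1 minus adrenal gland was 0.65 ± 0.13, 0.71 ± 0.12 and 0.79 ± 0.13 in double transgenic, MYCN and mutALK tumours, where Rpl22 was 0.08 ± 0.10, 0.48 ± 0.10 and -0.14 ± 0.10. A second Rpl22 probe set (mean 12.03) gave 0.12 ± 0.10, 0.47 ± 0.09 and -0.19 ± 0.10, while the third (mean 10.18) gave 1.76 ± 0.20, 1.15 ± 0.19 and 0.87 ± 0.20 and was called higher in all 3.

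Rpl7 rose in all 3 tumour groups, by 0.43 ± 0.13, 0.60 ± 0.12 and 0.51 ± 0.13 in double transgenic, MYCN and mutALK tumours, where Rpl7l1 differed by 0.17 ± 0.13, 0.82 ± 0.13 and -0.44 ± 0.13. Without the hepatocyte arrays Rpl7 differed by 0.30 in double transgenic and 0.25 in mutALK tumours and lost both calls (adjusted p = 0.0704 and 0.226), as it did with only the compared groups (0.0764 and 0.0699). Rpl7l1 thus took both directions against adrenal gland, and its groups were ordered MYCN, double transgenic, adrenal and mutALK, with only the double transgenic and adrenal arrays overlapping. Its 3 probe sets were all called higher in MYCN minus mutALK tumours, at 1.26 ± 0.13, 1.04 ± 0.09 and 0.91 ± 0.09. In double transgenic tumours minus adrenal gland they disagreed, at 0.17 ± 0.14, -0.36 ± 0.10 and 0.37 ± 0.10, the second called lower and the third higher, and the fall in mutALK tumours was called in the first 2 of the 3. Rps27l had 3 probe sets too, and in mutALK minus adrenal gland they read -0.44 ± 0.10, -0.49 ± 0.11 and -0.49 ± 0.10. Its partner Rps27 was measured only by a probe set near 7.3 and passed no test, at -0.03 ± 0.11 in MYCN tumours minus adrenal gland.

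Rps4x rose by 0.46 ± 0.12, 0.54 ± 0.12 and 0.41 ± 0.12 in double transgenic, MYCN and mutALK tumours against adrenal gland, and with the mean of its 2 probe sets the differences were 0.03, 0.16 and 0.04, none called (adjusted p = 0.803, 0.163 and 0.808). Its second probe set had a mean of 5.05. Without the hepatocyte arrays Rps4x differed by 0.29 in double transgenic and 0.19 in mutALK tumours and lost both calls (0.0846 and 0.365), and the mutALK call was also lost without mutALK 1 (0.0640). Rps4l, the transcribed pseudogene, read 9.19, 8.73 and 4.61 in double transgenic tumours, 4.55, 5.15, 8.10 and 5.64 in MYCN tumours, 5.98, 10.21 and 5.16 in mutALK tumours, against 9.38, 9.54 and 9.21 in adrenal glands. The adrenal arrays lay close together, while the tumour arrays spread from 4.55 to 10.21. It was called lower in MYCN tumours at -3.51 ± 1.34 (adjusted p = 0.0471), and that call was lost in 8 of the 13 single-array omissions, among them each adrenal array and MYCN 1, 2 or 4 (adjusted p = 0.0531 to 0.111), and without the hepatocyte arrays (0.102). Rpl3l, known from striated muscle, and Rpl39l, known from testis, read at most 4.30 on any array and passed no test.

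**Figure D3:**
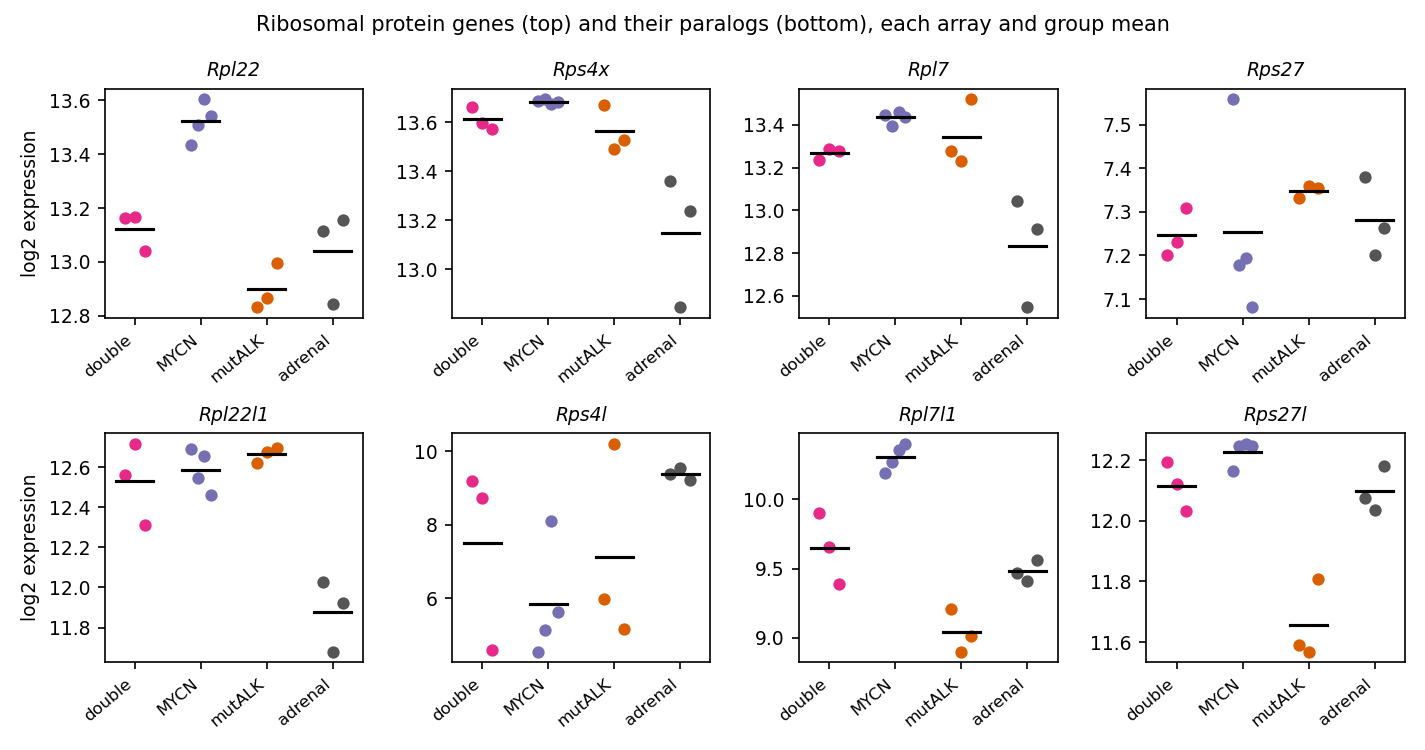
Log2 expression on each array (points) and group means (bars) of Rpl22, Rps4x, Rpl7 and Rps27 in the upper row and of their paralogs Rpl22l1, Rps4l, Rpl7l1 and Rps27l in the lower row, each panel on its own scale. Rpl22 is highest in MYCN tumours while Rpl22l1 is raised in all 3 tumour groups, Rpl7l1 and Rps27l are lowest in mutALK tumours, and Rps4l spreads widely within each tumour group.

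The members that passed no test in MYCN tumours against adrenal gland included bright genes with small differences. Rps29 read 13.86, 13.94, 13.93 and 13.92 in MYCN tumours, against 13.77, 13.76 and 13.80 in adrenal glands and differed by 0.14 ± 0.08 (adjusted p = 0.162). Rpl38 differed by 0.16 ± 0.08, Rps28 by 0.19 ± 0.09 and Rplp2 by 0.21 ± 0.09 (adjusted p = 0.105, 0.116 and 0.0881). Rpl38 was called higher in double transgenic and mutALK tumours, at 0.24 ± 0.08 and 0.24 ± 0.08 (adjusted p = 0.0271 and 0.0317), while the other 3 were not. These 4 genes read between 13.46 and 14.01 on every array, at the top of the scale. Of the 13 members below a mean of 12, 4 (30.8%) rose in MYCN tumours, near the 25.4% of all genes. The 3 largest rises were among them.

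A gene's probe sets did not always give the same size of difference. The 49 members have 105 single-symbol probe sets, and with all 45037 probe sets tested on their own the 56 that were not the brightest had 42 higher, 1 lower and 13 not called in MYCN minus adrenal gland, with a median of 0.61, where 22.6% of all probe sets rose and 19.1% fell. The 110 probe sets shared among several symbols had 91 higher, 3 lower and 16 not called, with a median of 0.43. Rpl13a, a large-subunit protein, has 4 probe sets with means of 13.66, 13.27, 12.48 and 11.47, and in MYCN minus mutALK tumours they differed by 0.27 ± 0.08, 0.38 ± 0.10, 0.92 ± 0.10 and 1.47 ± 0.21, larger as the signal was dimmer. Rpl41, which encodes the smallest ribosomal protein, differed in MYCN minus adrenal gland by 0.48 ± 0.09 and 0.36 ± 0.09 on probe sets near 13.8 and by 1.74 ± 0.32 and 2.22 ± 0.33 on probe sets with means of 7.83 and 7.32. What the dim probe sets of a bright gene read was not tested.

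Rps9, a small-subunit protein, had 1 probe set that went against the others. Its brightest read 13.46, 13.42, 13.52 and 13.44 in MYCN tumours, against 13.001, 12.53 and 12.95 in adrenal glands, a difference of 0.63 ± 0.12 (adjusted p = 0.000939). The second read 12.36, 12.32 and 11.96 in double transgenic tumours, 7.49, 8.02, 7.93 and 7.82 in MYCN tumours, 11.98, 12.29 and 12.57 in mutALK tumours, against 12.08, 12.03 and 12.16 in adrenal glands. Its 4 MYCN values lay about 4 units below those of all other arrays, while the other groups overlapped. The fall was -4.28 ± 0.17 against adrenal gland and -4.47 ± 0.17 against mutALK tumours (adjusted p = 2.93e-08 and 2.25e-07), and double transgenic minus MYCN tumours was 4.40 ± 0.17. The third, dim Rps9 probe set (mean 6.79) rose in MYCN tumours against adrenal gland by 1.62 ± 0.36.

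**Figure D4:**
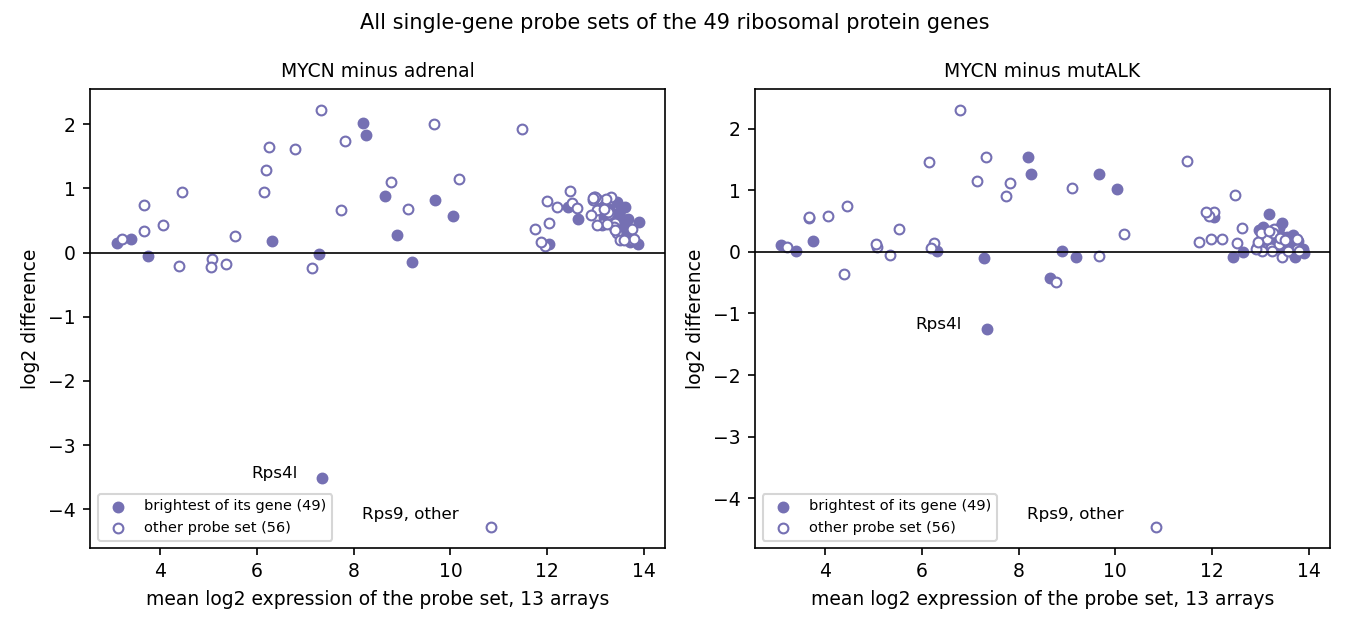
Log2 difference of each single-gene probe set of the 49 members against its mean log2 expression over 13 arrays, in MYCN minus adrenal gland and in MYCN minus mutALK tumours. Filled points are the brightest probe set of a gene (49) and open points the others (56), and the low Rps9 probe set stands at -4.28 and -4.47.

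Other genes of the translation machinery were set beside the members. Of the ubiquitin fusion list only Fau, which carries ribosomal protein S30, was measured alone, and it rose by 0.28 ± 0.10 in double transgenic and 0.26 ± 0.10 in MYCN tumours against adrenal gland. Among 19 of 21 listed translation factors and other genes with TOP mRNAs, 13 rose and 1 fell in double transgenic, 14 rose and 0 fell in MYCN and 10 rose and 1 fell in mutALK tumours against adrenal gland, with medians of 0.63, 0.69 and 0.36. Over all genes 24.3%, 25.4% and 21.3% rose and 24.2%, 24.8% and 21% fell. In MYCN tumours the largest were Hnrnpa1, an RNA-binding protein, at 2.25 ± 0.15, Npm1, a nucleolar chaperone, at 1.72 ± 0.14, and Nap1l1, a histone chaperone, at 1.58 ± 0.11. Between MYCN and mutALK tumours 11 rose and 1 fell (median 0.35), where 17.2% of all genes rose and 13.6% fell. The fall was Vim, an intermediate filament of mesenchymal cells, at -1.56 ± 0.33.

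Ribosome assembly factors had median differences further from 0 than the ribosomal proteins in all 6 comparisons, a gap that was not tested. In double transgenic minus MYCN tumours both medians were below 0. In mutALK tumours minus adrenal gland the medians were close (0.34 and 0.31), and 33.3% of assembly factors rose, against 51% of members. Of 39 measured of 40 listed, 29 rose and 0 fell in double transgenic, 37 rose and 0 fell in MYCN and 13 rose and 4 fell in mutALK tumours against adrenal gland (medians 0.84, 1.36 and 0.34). Of all genes 24.3%, 25.4% and 21.3% rose in these comparisons and 24.2%, 24.8% and 21% fell. Between MYCN and mutALK tumours 37 rose and 0 fell (median 0.97), between double transgenic and MYCN tumours 0 rose and 19 fell (median -0.57), and between double transgenic and mutALK tumours 13 rose and 0 fell (median 0.45). For all genes the shares that rose were 17.2%, 6.16% and 8.39%, and those that fell 13.6%, 6.66% and 6.04%. Rrp1b, Nop56, Gar1 and Wdr43, all nucleolar, had the largest rises in MYCN tumours against adrenal gland, at 2.84 ± 0.18, 2.66 ± 0.17, 2.37 ± 0.18 and 2.29 ± 0.19. Most assembly factors have means well below those of the bright ribosomal proteins, so the sizes are not on an equal footing.

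Mitochondrial ribosomal proteins, encoded in the nucleus for the separate ribosome of mitochondria, mostly fell or were not called in double transgenic and mutALK tumours. Of 76, 5 rose and 40 fell in double transgenic, 21 rose and 18 fell in MYCN and 2 rose and 42 fell in mutALK tumours against adrenal gland (medians -0.43, -0.0004 and -0.49). Of all genes 24.3%, 25.4% and 21.3% rose and 24.2%, 24.8% and 21% fell. The MYCN counts, 27.6% and 23.7% of the list, were near these shares. Between MYCN and mutALK tumours 52 rose and 2 fell (median 0.51), where 17.2% of all genes rose and 13.6% fell. Between double transgenic and MYCN tumours 0 rose and 27 fell (median -0.33), where 6.16% of all genes rose and 6.66% fell. Of 18 measured genes that control ribosomal protein mRNAs or chaperone their proteins, 10 (55.6%) rose and 5 (27.8%) fell in MYCN tumours against adrenal gland. The falls were near the 24.8% of all genes, while 25.4% of all genes rose. In that list Larp1, which binds TOP mRNAs, rose by 1.31 ± 0.10 and Eif4ebp1, a translation repressor, differed by -1.72 ± 0.38 (adjusted p = 1.21e-06 and 0.00247). Myc differed by -3.13 ± 0.44, -2.84 ± 0.41 and -1.38 ± 0.44 in double transgenic, MYCN and mutALK tumours. The Mycn probe set differed by 2.50 ± 0.55, -1.34 ± 0.51 and 4.35 ± 0.55, lower in MYCN tumours than in adrenal gland, and since the labels do not say whether it reads the MYCN transgene it does not check the genotype labels.

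**Figure D5:**
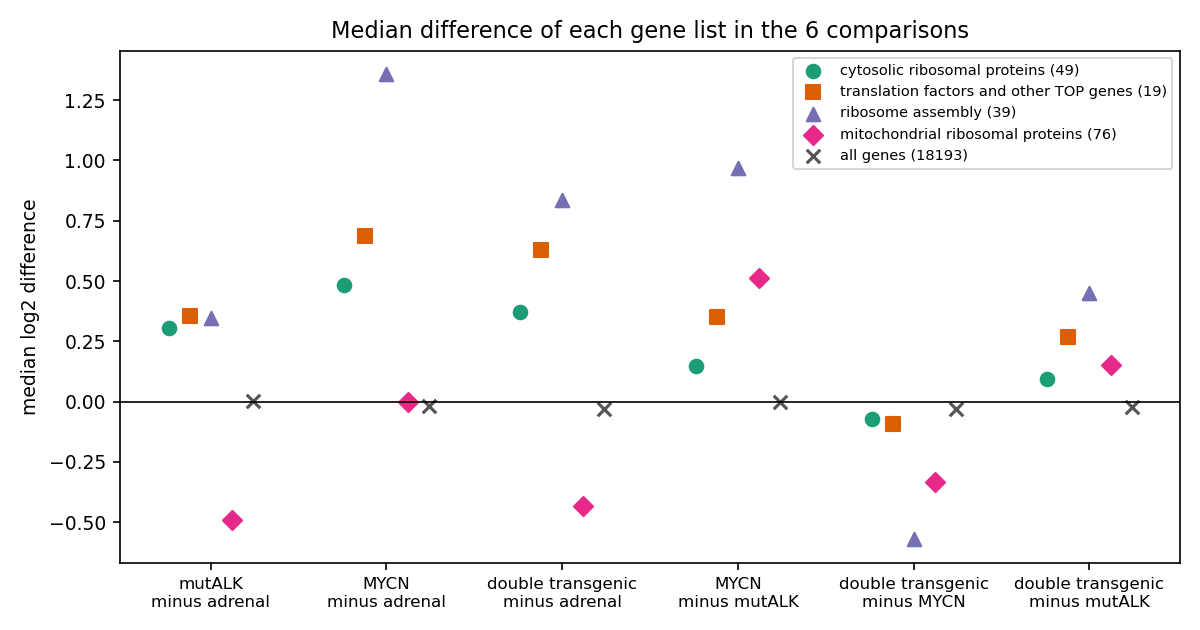
Median log2 difference of each gene list in the 6 comparisons, with the number of genes measured in the legend. The cytosolic ribosomal proteins lie at 0.31 to 0.48 against adrenal gland and at -0.07 to 0.15 among tumours, the assembly factors reach 1.36, and the mitochondrial ribosomal proteins are at or below 0 against adrenal gland.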

How the data were processed

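RNA of 13 samples was measured on Affymetrix mouse arrays. The authors' deposited values are log2 expression summaries made by RMA in Partek, per the submitters' processing notes, which give no versions. Of 45101 probe sets, 64 are controls, 34945 carry 1 symbol, 932 several and 9160 none in the platform annotation, which may be dated. Symbols were checked in a RefSeq table (34741 matched, 0 changed). Each gene was read from its probe set with the highest mean, giving 18193 genes with no filter on dim genes.

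Group means were estimated in 1 model over the 13 arrays, for all genes at once, by limma version 3.58.1 under R version 4.3.3 with moderated variances (residual degrees of freedom 9, prior 2.28). The 6 contrasts were tested two-sided and called at a Benjamini-Hochberg adjusted p under 0.05 over all 18193 genes. Differences are the first group minus the second ± SE. The fit was tested on simulated data. Members, lists and the rule for naming members (up to 8 largest rises and 8 largest falls per comparison among called members, with members fixed by role) were chosen with earlier results of these data known. Other genes, such as Rps9, Rpl13a, Rpl41 and Rps29, were chosen after their values were seen. The alternatives were a second quantile normalization, centring of arrays on their medians, averaging a gene's probe sets, a filter that drops the lowest 40% of genes by mean (46 members left), a trended and robust variance prior, a fit on the compared groups alone, arrays sharing a title number as a random block (estimated correlation 0.456), leaving out each array, and leaving out 5 arrays with a hepatocyte marker mean above 8. Testing every probe set on its own was added after seeing the data. Plots used matplotlib version 3.10.9 and Python version 3.11.15.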

Additional observations from a re-analysis of the deposited data

Results flagged for a closer look

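Dixon's criterion was applied only to members named by the rule above, in the MYCN group, the only group with 4 arrays. There 3 values lay far from the others of their gene, which chance meets in about 1 of 20 groups. Every named member was checked, so some such values are expected by chance, and the number seen was not tested. Members outside that rule were not checked. Rpl27 read 12.79 on MYCN 2, against 12.74 to 12.75 on the other MYCN arrays. Rps27l read 12.16 on MYCN 1, against 12.25 on the others. Rpsa read 13.81 on MYCN 1, against 13.72 to 13.73. Each lay within 0.1 of its group, so the spread of the other 3 arrays was small.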

How the results depend on the processing

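Counts are of 49 members. Rises in mutALK minus adrenal gland went from 25 to 6 with only the compared groups and 2 without the hepatocyte arrays (16 to 25 with 1 array left out), and falls from 2 to 3 without the hepatocyte arrays (1 to 2). In MYCN minus adrenal gland rises were 34 to 36 with 1 array left out, and the single fall became 2 with the mean of probe sets and 0 with the block, without the hepatocyte arrays and with every probe set on its own (0 to 1). In double transgenic minus adrenal gland 34 rises became 19 with only the compared groups and 18 without the hepatocyte arrays (30 to 34), and the fall 0 with the mean of probe sets or only the compared groups (0 to 1). In MYCN minus mutALK tumours 14 rises became 9 with quantile normalization again, 9 with the block and 8 without the hepatocyte arrays (8 to 19), and 0 falls became 1 with the mean of probe sets. In double transgenic minus MYCN tumours 1 rise became 2 with the mean of probe sets or without the hepatocyte arrays, and the 3 falls were 2 to 4 with 1 array left out. In double transgenic minus mutALK tumours 6 rises became 11 with the mean of probe sets and 3 with only the compared groups (5 to 7), and the fall 0 with only the compared groups, the block or without the hepatocyte arrays (0 to 1). Fewer samples enter where groups or arrays are left out, and other causes were not tested. Reversal was checked only for members named by the rule, which leaves out Rps9, whose second probe set fell in MYCN tumours. No member named by the rule reversed under any of 22 alternatives. Calls held under all of them for 3 of 14 named members in mutALK, 15 of 19 in MYCN and 9 of 17 in double transgenic tumours against adrenal gland, and for 6 of 10, 3 of 4 and 2 of 7 in MYCN minus mutALK, double transgenic minus MYCN and double transgenic minus mutALK tumours. No paired analysis was possible because replicate numbers do not pair samples across groups.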
